A study of Mus musculus with 8 samples.

Results

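T cell receptor gene segments were examined in T cells taken from grafts of tissue derived from human embryonic stem cells, in tolerant and in rejecting mice. The members were the probe sets whose listed gene symbols, whether 1 or several, all belong to alpha, beta, gamma or delta receptor chain segments. There were 51 of them among 35556 probe sets. The rule used names and no measured values.

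The T cell receptor is a pair of chains, alpha with beta or gamma with delta, that recognises antigen and sits in the membrane with the CD3 chains, which carry the signal inwards. Each chain is encoded by separate gene segments that are joined by DNA recombination while a T cell develops: variable, joining and, for beta and delta, diversity segments make the antigen-binding end, and a constant segment makes the rest. A T cell transcribes the variable segment it has joined, so a large clone can raise the RNA of its own segments in a tissue sample. A constant segment is shared by cells that joined different variable segments.

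The tolerant group held 4 samples of CD3+ T cells from grafts in mice that had been injected with antibodies against CD4, CD8 and CD40L, and the rejecting group held 4 such samples from grafts in untreated mice. All hosts were wild-type mice of CD1, an outbred stock, and cells were collected 30 days after grafting. Total RNA was measured on whole-transcript arrays, 1 array a sample. Samples are numbered 1 to 4 in both groups, and no label states whether they came from separate mice. The p-values therefore reflect variation among these samples, part of which may be technical.

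Levels are given as RMA values on the log2 scale, and each difference is the tolerant mean minus the rejecting mean. A background line was drawn for each array at the 99th percentile of 1182 probe sets of olfactory or vomeronasal receptors, which serve the sense of smell. The lines lay between 0.99 and 1.35. Arrays numbered 3 and 4 carried more signal than arrays numbered 1 and 2 in both groups: of probe sets with exactly 1 symbol, 17.1% and 17.1% lay above the line on tolerant arrays 3 and 4 and 15.1% and 10.7% on rejecting arrays 3 and 4, against 2.77% and 2.54% on tolerant arrays 1 and 2 and 5.03% and 5.73% on rejecting arrays 1 and 2. The counts of receptor probe sets are therefore given over all 8 arrays and within each pair of numbers. Of 11 measured T cell markers, 4 exceeded the line on at least 2 arrays, and Cd3d, Cd247 and Cd28 did so on 0 of the 8.

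All 51 members were annotated to variable segments. None of them was annotated to a constant, joining or diversity segment. By the annotation, none therefore stands for the constant-segment RNA that cells with different variable segments share. By chain, 41 listed alpha segments, 3 beta, 4 gamma and 2 delta, and 1 listed an alpha and a delta segment together. The chain was read from the first letters of each symbol. Trav14d-3-dv8 (5 members) and Trav16d-dv11 (1 member), whose names also carry a delta variable (dv) number, were therefore counted as alpha. In the GRCm38.p6 gene table the alpha and delta segments lie on chromosome 14, the beta segments on chromosome 6 and the gamma segments on chromosome 13. A single symbol was listed for 20 members and several symbols for 31. A probe set with several symbols cannot be assigned to any single segment and is called here by its number.

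The members named 19 segments in all, whereas the gene table holds 148 variable segments under receptor names. The alpha segments Trav3-3 and Trav3n-3 appeared in 23 members and were the sole listed pair of 17, whose means over the 8 arrays ran from 0.28 to 1.50. Those 17 probe sets held 13 different sets of values, so the shared pair of symbols did not stand for 1 measurement. Conversely, 24 members formed 12 pairs with identical values on all 8 arrays, and 3 of these pairs were listed under unlike symbols. An example is 10414793, listed under Trav7d-6, whose values were those of 10414903, listed under Trav16d-dv11 and Trav7d-6. Every such pair lay in the alpha and delta locus. In all, 47.1% of the members had identical values elsewhere in the table, against 2.33% of all probe sets. The 51 members therefore held 39 different sets of values.

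On each array most receptor probe sets lay under the background line. The median member read 0.55, 0.49, 0.38 and 0.46 on tolerant arrays 1 to 4, against 0.52, 0.45, 0.38 and 0.47 on rejecting arrays 1 to 4. These medians overlapped between the groups. They lay above the median olfactory or vomeronasal receptor probe set of the same array, which ran from 0.15 to 0.40 in tolerant samples and from 0.25 to 0.37 in rejecting samples, and under the background lines. The median of all probe sets ran from 0.47 to 0.52, and the median member exceeded it only on tolerant array 1 and rejecting array 1.

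On at least 1 array, 13 of 51 members lay above the background line, or 25.5%. This compares with 32.5% of all probe sets and 26.4% of those with exactly 1 symbol. It was 4.15% for olfactory and vomeronasal receptors and 8.33% for 36 probe sets of immunoglobulin segments. On at least 4 arrays it was 4 members (10.8% of all probe sets), and on all 8 arrays it was 0 (1.7% of all probe sets). The identical pair 10414775 and 10414882 counts as 2 members in the 13 and in the 4. By array, 1, 1, 5 and 7 members lay above the line on tolerant arrays 1 to 4, against 3, 4, 7 and 5 on rejecting arrays 1 to 4. By the first letters of the symbol, 10 of the 13 members were alpha, 1 was beta, 2 were gamma and 0 were delta. Of the alpha members, 3 lay above the line on arrays 1 or 2 but on neither array 3 nor array 4, among them a Trav14d-3-dv8 probe set. These, named after their values were seen, were Trav14d-3-dv8 (10414807), at 1.56 on rejecting array 1, and Trav12-2 (10414958) and the probe set 10414711 listed under Trav3n-3 and Trav3-3, at 1.30 and 1.55 on rejecting array 2. Trav12-2 (10414958) read slightly higher, 1.32, on tolerant array 2, where the line stood at 1.35. The identical pairs listed under the same single symbols stayed under the line on all 8 arrays. Trav14d-3-dv8 read 0.54 on rejecting array 1 by 10414754 and 10414860. Trav12-2 read 1.05 on rejecting array 2 by 10414769 and 10414876. A value under the line does not show that a segment was not transcribed.

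**Figure D1:**
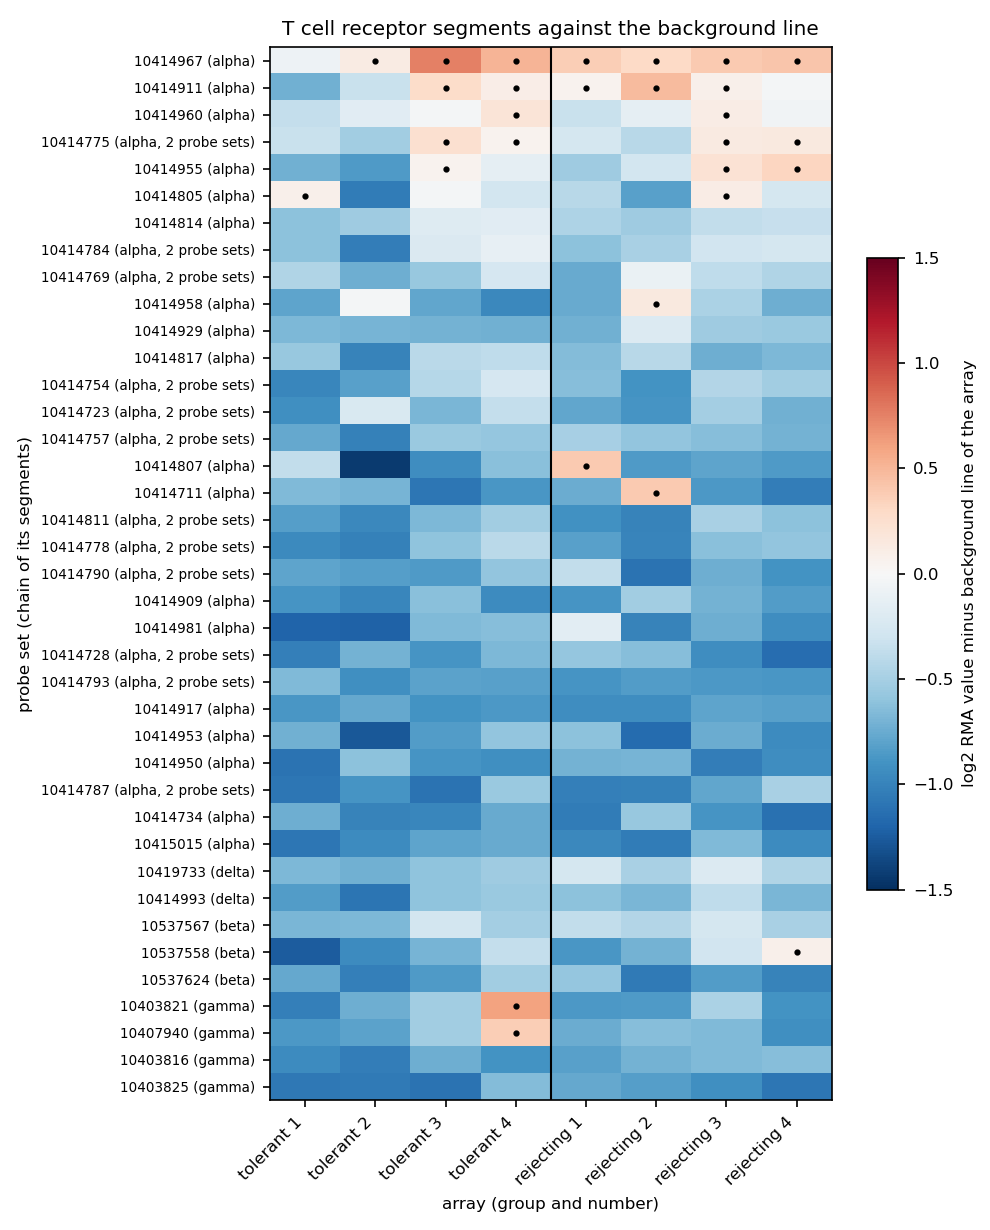
Log2 RMA value minus the background line of the same array, for the 39 different sets of values held by the 51 receptor probe sets (rows, with the chain of the listed segments) on the 4 tolerant and 4 rejecting arrays (columns). Black dots mark values above the line, and "2 probe sets" marks identical pairs, of which 10414784 stands also for the probe set listed under an alpha and a delta segment. Above the line lie mainly a few alpha probe sets at the top, and 2 gamma probe sets on tolerant array 4.

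Among alpha segments, probe set 10414967, listed under Trav3n-3 and Trav3-3, exceeded the line on 7 of the 8 arrays. It read 1.26, 1.47, 1.81 and 1.50 in tolerant samples, against 1.55, 1.46, 1.40 and 1.56 in rejecting samples. The groups overlapped, and tolerant replicate 3 was the highest of the 8. The difference was 0.02 with a standard error of 0.12 and a 95% interval from -0.27 to 0.30 (limma adjusted p = 1). On arrays 3 and 4 it was 0.17 (standard error 0.15, limma adjusted p = 0.838).

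Probe set 10414955, listed under the same pair, exceeded the line on 3 arrays. It read 0.61, 0.49, 1.10 and 0.85 in tolerant samples, against 0.65, 0.88, 1.23 and 1.46 in rejecting samples. Tolerant values were below rejecting values within arrays 3 and 4 and within arrays 1 and 2, and the groups overlapped over all 8. The difference was -0.29 with a standard error of 0.21 over all 8 arrays and -0.37 with a standard error of 0.15 on arrays 3 and 4 (limma adjusted p = 1 and 0.774). The identical pair 10414775 and 10414882 read 0.99, 0.83, 1.29 and 1.05 in tolerant samples, against 0.91, 0.74, 1.14 and 1.29 in rejecting samples. All 4 arrays numbered 3 or 4 stood above the line for this pair, and the groups overlapped there too.

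Probe set 10414911, under the same 2 symbols, differed in sign between the pairs of arrays. It read 0.61, 1.02, 1.32 and 1.08 in tolerant samples, against 1.23, 1.62, 1.09 and 1.12 in rejecting samples. Both tolerant arrays numbered 1 and 2 were below both rejecting ones, a difference of -0.61 (standard error 0.23), whereas the difference on arrays 3 and 4 was 0.10 (standard error 0.13). The interaction, the difference on arrays 3 and 4 minus that on arrays 1 and 2, was 0.71 with a standard error of 0.28 and did not pass (limma adjusted p = 0.757). The others named by their small p were dimmer. Trav7d-4 (10414917) read 0.46, 0.58, 0.15 and 0.13 in tolerant samples, against 0.24, 0.23, 0.22 and 0.32 in rejecting samples, under the line on all 8 arrays. Its interaction was -0.42 (standard error 0.16, limma adjusted p = 0.753). Probe set 10414734, also listed under Trav7d-4 alone and also under the line on all 8 arrays, did not share this. It differed by 0.07 on arrays 3 and 4 and by 0.12 on arrays 1 and 2, an interaction of -0.05 (standard error 0.27). For the identical pair of 10414811 the interaction was -0.35. Probe set 10414817 had a difference of 0.25 on arrays 3 and 4, and 0.15 without rejecting replicate 3. The identical pair of 10414723 read 0.42 and 1.12 on tolerant arrays 1 and 2, against 0.39 and 0.27 on rejecting arrays 1 and 2. Its difference there was 0.44, and 0.09 without tolerant replicate 2. Trav19 (10414981) differed by -0.44 on arrays 1 and 2, where rejecting replicate 1 read 1.01 and the other 3 read 0.14, 0.14 and 0.15. Without rejecting replicate 1 that difference was -0.01. None of these passed the test.

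The beta chain was represented by 3 probe sets. Trbv1 (10537558), a variable segment of the beta locus, read 0.09, 0.41, 0.35 and 0.64 in tolerant samples, against 0.30, 0.44, 0.73 and 1.22 in rejecting samples. Rejecting replicate 4 was the highest and the sole value above the line. The groups overlapped over all 8 arrays and did not within arrays 3 and 4. The difference was -0.30 with a standard error of 0.21 over all 8 arrays and -0.48 with a standard error of 0.22 on arrays 3 and 4 (limma adjusted p = 1 and 0.777). The value for those 4 arrays was -0.23 without rejecting replicate 4 and -0.73 without rejecting replicate 3. The other 2, 10537567 and 10537624, were listed under Trbv13-2 and Trbv1 together and stayed under the line on all 8 arrays. They had differences of -0.09 and 0.13, with standard errors of 0.09 and 0.14.

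The gamma chain had 4 probe sets, and 2 of them stood apart on tolerant array 4. Probe set 10403821, listed under Trgv2, Trgv4 and Trgv6, read 0.31, 0.62, 0.53 and 1.59 in tolerant samples, against 0.31, 0.30, 0.53 and 0.25 in rejecting samples. Probe set 10407940, listed under these and Trgv1, read 0.47, 0.55, 0.52 and 1.36 in tolerant samples, against 0.43, 0.51, 0.35 and 0.22 in rejecting samples. In both, tolerant replicate 4 was the highest of the 8 arrays and the sole value above the line, and the other 7 values ran from 0.25 to 0.62 and from 0.22 to 0.55. Both sequence records listed for 10403821 are also listed for 10407940, so the 2 are not treated as independent measurements. The remaining gamma probe sets did not share this. Probe set 10403816, listed under Trgv4 and Trgv6, read 0.10 on tolerant array 4, its lowest value, and between 0.31 and 0.50 on the other 7. It has 1 listed sequence record in common with 10403821. Trgv1 alone (10403825) read 0.26, 0.29, -0.07 and 0.34 in tolerant samples, against 0.41, 0.32, 0.09 and 0.06 in rejecting samples.

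Neither gamma probe set passed the test. The difference for 10403821 was 0.41 with a standard error of 0.26 over all 8 arrays and 0.67 with a standard error of 0.38 on arrays 3 and 4 (limma adjusted p = 1 and 0.792). For 10407940 it was 0.35 over all 8 arrays (standard error 0.20, limma adjusted p = 1) and 0.66 on arrays 3 and 4 (standard error 0.30, limma adjusted p = 0.777). Without tolerant replicate 4 the differences on arrays 3 and 4 were 0.14 and 0.24, and over all 8 arrays both were 0.14. For 10403816 the difference over all 8 arrays was -0.14 with a standard error of 0.10. On tolerant array 4 the summed log2 values of 5 gamma-delta T cell markers came to 3.76, within the range of 2.94 to 4.31 over the rejecting arrays. The summed T cell markers came to 16.0 and the summed macrophage markers to 15.1 there, each the highest of the 8 arrays. The part of these in the gamma values was not tested.

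The delta chain had 2 probe sets of 1 segment, both listed under Trdv2-2, and both lay under the line on all 8 arrays. Probe set 10419733 read 0.66, 0.63, 0.44 and 0.46 in tolerant samples, against 0.91, 0.67, 0.80 and 0.69 in rejecting samples. Every tolerant value lay below every rejecting value, the nearest being 0.66 in tolerant and 0.67 in rejecting samples. The means were 0.55 ± 0.11 in tolerant and 0.77 ± 0.11 in rejecting samples (SD, n = 4 each). The difference was -0.22 with a standard error of 0.10 over all 8 arrays and -0.29 with a standard error of 0.11 on arrays 3 and 4 (limma adjusted p = 1 and 0.741). Probe set 10414993 read 0.50, 0.26, 0.45 and 0.43 in tolerant samples, against 0.56, 0.46, 0.63 and 0.46 in rejecting samples, a difference of -0.12 (standard error 0.09). The groups overlapped for that probe set. The probe set listed under Trav4d-4 and Trdv2-2 together (10414894) had a difference of -0.02 (standard error 0.14).

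**Figure D2:**
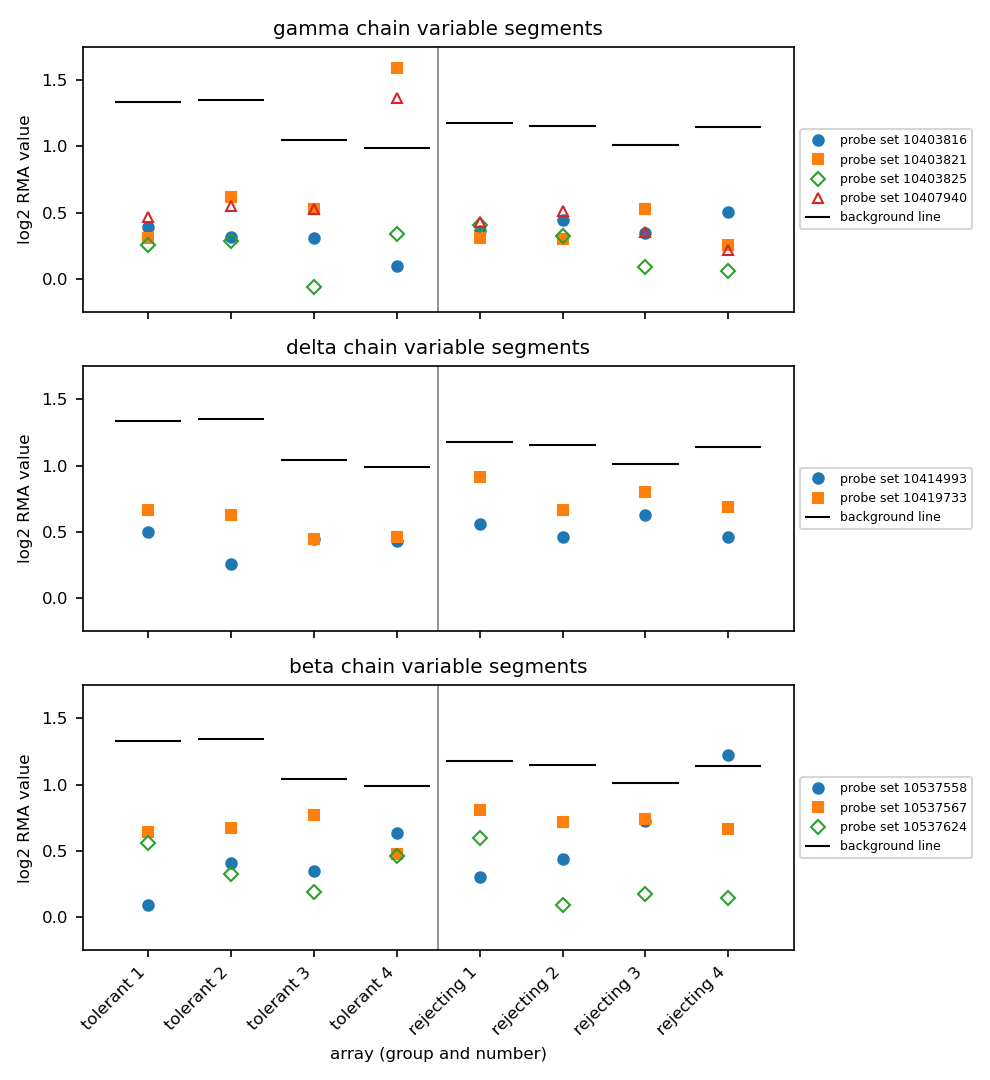
Log2 RMA values (vertical axis) of the 4 gamma, 2 delta and 3 beta variable segment probe sets on the 4 tolerant and 4 rejecting arrays (horizontal axis), with the background line of each array as a black bar. Tolerant array 4 holds 2 gamma values above the line, at 1.59 and 1.36, the delta values are all under it, and 1 beta value, at 1.22 on rejecting array 4, is above it.

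In the comparison of tolerant with rejecting T cells, 0 of the 51 receptor probe sets passed limma's test at an adjusted p under 0.05, over all 8 arrays, on arrays 3 and 4, on arrays 1 and 2, or in the interaction. The share called among all 35556 probe sets was 0% in each of these and in each direction, so the count says nothing particular to the receptor. At an unadjusted p under 0.05 there were 0 members over all 8 arrays (against 1.24% of all probe sets higher and 1.55% lower), and 0 on arrays 1 and 2 (against 2.31% higher and 2.47% lower). On arrays 3 and 4 there were 0 higher and 1 lower, against 3.45% and 3.29% of all probe sets. That member was Trdv2-2 (10419733). In the interaction there was 1 in each direction, 10414911 and Trav7d-4 (10414917), against 3.11% and 3.4% of all probe sets.

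The median difference of the members lay near that of the whole table. Over all 8 arrays 29 members had the higher mean in tolerant samples and 22 the lower, against 47.7% higher and 52.3% lower among all probe sets. Their median difference was 0.02, against -0.01 for all probe sets. On arrays 3 and 4 it was 28 higher and 23 lower (43.9% higher and 56.1% lower among all), with a median of 0.02 against -0.03. On arrays 1 and 2 it was 30 higher and 21 lower (49.9% higher and 50.1% lower among all), with a median of 0.05 against 0.00. In the interaction the difference was higher on arrays 3 and 4 than on arrays 1 and 2 for 23 members and lower for 28, against 46.7% and 53.3% of all probe sets. The 39 different sets of values, taken once each, gave medians of 0.02, 0.01 and 0.02. Of these, 21 were higher and 18 lower over all 8 arrays, 20 and 19 on arrays 3 and 4, and 21 and 18 on arrays 1 and 2.

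Groups that did not overlap were counted in the same way. Over all 8 arrays there were 0 such members higher and 1 lower, Trdv2-2 (10419733), against 0.911% and 1.18% of all probe sets. On arrays 3 and 4 there were 7 higher and 10 lower (16.4% and 22.5% of all), and on arrays 1 and 2 there were 12 higher and 6 lower (17.3% and 16.7% of all). Identical pairs count as 2 members here. On arrays 3 and 4 these were 10414728 with 10414926 (higher) and 10414811 with 10414937 (lower). On arrays 1 and 2 they were 10414723 with 10414923, 10414787 with 10414897, 10414793 with 10414903 and 10414811 with 10414937, all among the higher.

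By chain, the median difference on arrays 3 and 4 was 0.02 for 41 alpha, -0.08 for 3 beta, 0.36 for 4 gamma and -0.20 for 2 delta probe sets. On arrays 1 and 2 it was 0.08, -0.10, -0.01 and -0.14. The medians of beta, gamma and delta rest on the few values given above. The 95% intervals of single members reached a median of 0.34 to either side of the difference over all 8 arrays. On arrays 3 and 4 this was 0.33, and on arrays 1 and 2 it was 0.47. These intervals are not adjusted for the number of probe sets tested, so they do not give the size of difference that could be called. Larger differences also failed the adjusted test, such as 1.36 for Cd3e on arrays 3 and 4.

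**Figure D3:**
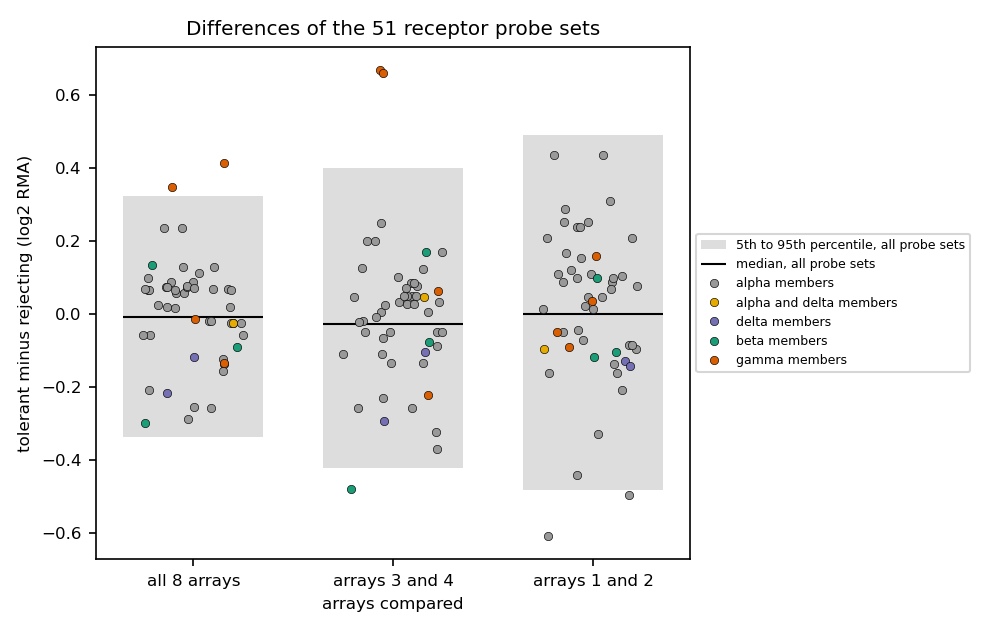
Tolerant minus rejecting difference in log2 RMA value (vertical axis) of each of the 51 receptor probe sets, coloured by chain, over all 8 arrays, on arrays 3 and 4 and on arrays 1 and 2 (horizontal axis, points spread sideways for legibility). Grey bands run from the 5th to the 95th percentile of all 35556 probe sets and black bars give their median. Most members lie inside the bands. The 2 gamma probe sets lie above them over all 8 arrays (0.41 and 0.35) and on arrays 3 and 4 (0.67 and 0.66), Trbv1 lies below on arrays 3 and 4 (-0.48), and 10414911 and 10414807 lie below on arrays 1 and 2 (-0.61 and -0.50).

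The CD3 chains, which assemble with the receptor chains, were read beside them. Cd3e (10593024) read 1.05, 0.57, 2.75 and 3.82 in tolerant samples, against 0.88, 1.20, 1.51 and 2.36 in rejecting samples. Both tolerant arrays numbered 3 and 4 were above both rejecting ones, and the groups overlapped over all 8. On arrays 3 and 4 the difference was 1.36 with a standard error of 0.47 and did not pass (limma adjusted p = 0.721), and on arrays 1 and 2 it was -0.23. Cd3g (10593015) read 0.89, 0.42, 1.28 and 1.90 in tolerant samples, against 0.68, 1.02, 0.91 and 1.11 in rejecting samples, with differences of 0.58 on arrays 3 and 4 and -0.20 on arrays 1 and 2. On tolerant array 4, where Cd3e stood highest, the median member read 0.46. Cd3d, Cd247 (the zeta chain) and Ptcra, which pairs with beta before alpha is made, lay under the line on all 8 arrays, with differences over all 8 of 0.09, 0.13 and 0.17.

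**Figure D4:**
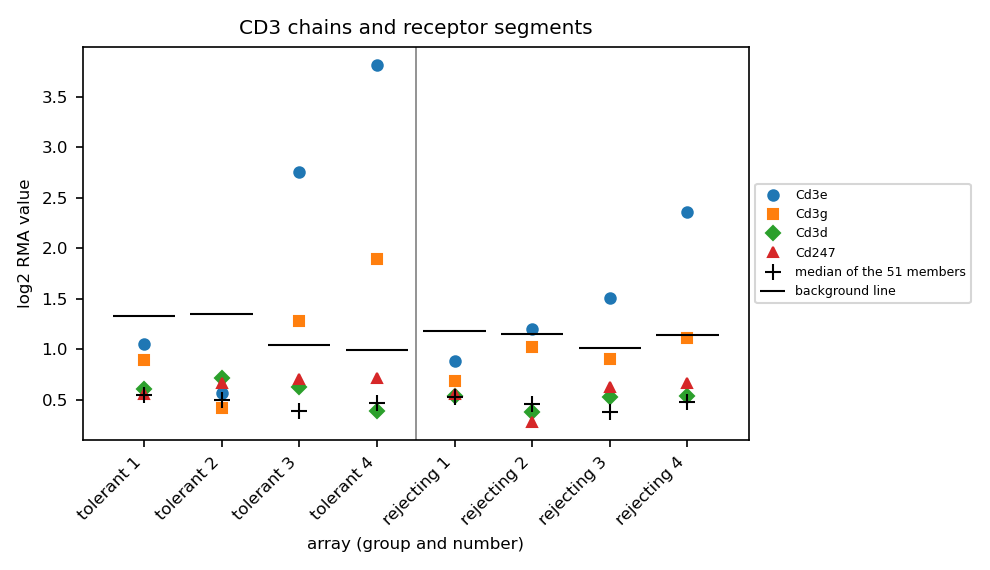
Log2 RMA values (vertical axis) of Cd3e, Cd3g, Cd3d and Cd247 on the 4 tolerant and 4 rejecting arrays (horizontal axis), with the median of the 51 receptor probe sets as crosses and the background line of each array as a black bar. Cd3e reaches 2.75 and 3.82 on tolerant arrays 3 and 4 and 1.51 and 2.36 on rejecting arrays 3 and 4, whereas the receptor median lies between 0.38 and 0.55 on every array.

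In the lists of genes that act with the receptor, 0 members passed in either direction in any of the comparisons, beside the 0% called in the table. At an unadjusted p under 0.05 on arrays 3 and 4, 1 gene of the CD3 list had the higher mean in tolerant samples (Cd3e), as had 3 of proximal signalling (Dgka, Fyn and Rasgrp1), 1 of proximal signalling had the lower mean (Ptpn6), and the coreceptor and recombination lists had 0. Among all probe sets 3.45% were higher and 3.29% lower at that p. Rasgrp1 and Ptpn6 are named after their values were seen. Of 26 measured genes of proximal signalling, 19 had the higher mean in tolerant samples on arrays 3 and 4 (median difference 0.12). There 43.9% of all probe sets did, as did 48.2% of those with exactly 1 symbol, from which the lists were drawn. Among probe sets above the line on at least 2 of those arrays it was 55.5%. On arrays 1 and 2 it was 11 higher and 15 lower (median -0.07), where 49.9% of all and 49.4% of single-symbol probe sets were higher. Over all 8 arrays it was 13 higher and 13 lower (median 0.01), where 47.7% of all and 50.1% of single-symbol probe sets were higher. Dgka, a diacylglycerol kinase that limits receptor signalling, read 0.73, 0.78, 2.19 and 2.09 in tolerant samples, against 0.56, 0.78, 1.10 and 1.15 in rejecting samples. Its difference on arrays 3 and 4 was 1.02 (standard error 0.11, limma adjusted p = 0.293), and both tolerant arrays numbered 3 and 4 stood above all the other samples. On arrays 1 and 2 it was 0.08. For Fyn, a kinase of the same family as Lck, the difference on arrays 3 and 4 was 0.58 with standard error 0.11 (limma adjusted p = 0.485), and on arrays 1 and 2 it was 0.17. Zap70, the kinase that binds phosphorylated CD3 chains, had 0.13 on arrays 3 and 4 and -0.02 on arrays 1 and 2, and the adaptor Lat had -0.13 and -0.10. Lck was not represented by a single-symbol probe set. Of 10 coreceptor and costimulation genes, 7 had the higher mean on arrays 3 and 4 (43.9% of all and 48.2% of single-symbol probe sets). On arrays 1 and 2 it was 5 (49.9% of all and 49.4% of single-symbol probe sets). Cd8b1 had differences of 0.26 and 0.08 there, Cd5 0.36 and 0.35, and Cd4, named after its values were seen, -0.14 and 0.24.

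Most genes of the recombination machinery lay under the background line. Of 10 measured, 9 exceeded the line on 0 of the 8 arrays, among them Rag2, a subunit of the recombinase, Dntt, which adds bases at the joins, and Nhej1, of the end-joining pathway. Rag2 had differences of -0.19 on arrays 3 and 4 and 0.26 on arrays 1 and 2, and Nhej1 of -0.18 and -0.15. Of the 10, 3 had the higher mean on arrays 3 and 4 and 5 on arrays 1 and 2, against the shares of all and of single-symbol probe sets just given. Markers of other cells were unequal between the groups on these arrays. The summed log2 values of 7 kidney tubule markers were 18.5 and 15.0 on tolerant arrays 3 and 4, against 5.38 and 5.64 on rejecting arrays 3 and 4. Those of 8 macrophage markers were 12.7 and 15.1 in these tolerant samples, against 9.34 and 4.33 in the rejecting samples. Those of 6 fibroblast markers were 15.5 and 14.9 in the tolerant samples, against 10.4 and 8.81 in the rejecting samples. The 6 measured B cell markers summed to 2.84 and 2.45 in the tolerant samples, against 3.26 and 2.53 in the rejecting samples. Those of 11 T cell markers were 12.3 and 16.0 in the tolerant samples, against 10.5 and 12.2 in the rejecting samples. The number of T cells in a sample and the receptor RNA in each cell cannot be told apart in these bulk samples. The part of other cells in the receptor values was not tested.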

How the data were processed

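The authors deposited log2 RMA values made with Affymetrix Expression Console, per the submitters' processing notes (not given in the sources used here: versions, library files, genome build, base of the logarithm). Base 2 was taken because array maxima lay between 12.57 and 12.68. No detection calls accompany the values, and the number of arrays limits the precision. The annotation listed 1 symbol for 21218 probe sets, several for 1881 and none for 12457, and names were updated through Entrez identifiers (21185 matched in GRCm38.p6; 0 changed). A listed gene with several probe sets was represented by the one with the highest mean.

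Differences were tested with limma 3.58.1 in R 4.3.3 (lmFit, eBayes, 2-sided, Benjamini-Hochberg over all 35556 probe sets) over all 8 arrays, on arrays 3 and 4, on arrays 1 and 2, and as an interaction. The test was checked on simulated data with shifts larger than any member difference given here and independent noise on each array. That check does not cover differences of the size seen here or the split between the sets of arrays. Plots used Python 3.11.15 and matplotlib 3.10.9. Deviations from the group means correlated across probe sets at 0.400, 0.406, 0.426 and 0.521 between arrays of the same number. Arrays of the same set but another number correlated about as much (tolerant 1 with rejecting 2 at 0.382, 2 with 1 at 0.399, 3 with 4 at 0.528 and 4 with 3 at 0.370). The values therefore show the split between the sets of arrays and do not single out a pairing by number. The number was a block in an alternative fit. Values were called identical within 1e-06.

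Members named in the text were the constant segments (0 found), up to 4 per chain with the highest mean on arrays 3 and 4, the 2 with the smallest p in each direction of each comparison, and any that passed. From the pathway lists these were Cd3d, Cd3e, Cd3g, Cd247, Ptcra, Lck, Zap70, Lat and the 2 of each list with the smallest p on arrays 3 and 4. Members, lists and the split of arrays were chosen with earlier results of these data known. Marker lists not described in the report summed, over the 8 arrays, to between 1.38 and 2.86 (NK cell), 3.02 and 5.15 (endothelial cell), 0.39 and 0.86 (red cell, 1 gene measured) and 1.24 and 3.47 (thymocyte).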

Additional observations from a re-analysis of the deposited data

Results flagged for a closer look

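Within groups of 4 samples, a value was picked out where its gap to the nearest of the others, divided by the range of the group, exceeded Dixon's critical value at the 95% level. Of 56 groups examined, 4 met this, and chance gives about 5%. The gamma probe set 10407940 stood at 1.36 on tolerant array 4. Trav19 (10414981) stood at 1.01 and the beta probe set 10537624 at 0.60 on rejecting array 1, and Cd3d stood at 0.37 on rejecting array 2. The last 3 lie under the background lines of their arrays.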

How the results depend on the processing

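The count of members called stayed at 0 in every fit run: 1 array left out in turn (a lone sample was assumed to vary like the other group), a repeated quantile normalization, median centring, a filter on dim probe sets, single-symbol probe sets alone, trend and robust moderation, the array set as a block, 4 means over all 8 arrays, and the replicate block (0 called in each comparison fitted with it), which changed no call. Over the whole table, arrays 3 and 4 gave 0 calls, against 10 higher and 1 lower with single-symbol probe sets alone and 19 higher and 7 lower with 4 means, and the interaction gave 0, against 10 and 2 with single-symbol probe sets; the fits with fewer probe sets adjust over fewer tests, and the cause was otherwise not tested. The median difference of the members on arrays 1 and 2 ran from 0.000769 (without rejecting replicate 2) to 0.0494 when 1 array was left out, and that of the interaction from -0.0740 to 0.0191 (without tolerant replicate 3). Over all 8 arrays it ran from -0.0138 to 0.0699 and on arrays 3 and 4 from -0.0324 to 0.0252, so the sign of these medians rests on single arrays. Keeping probe sets that exceed the line on 2 or more arrays, the medians were -0.373 on arrays 1 and 2 (2 members left) and -0.136 in the interaction (7 left). With the 95th percentile as the background line, 29 members lay above it on at least 1 array in place of 13. On arrays 3 and 4, leaving out 1 array turned the sign of small differences that had not passed: the range was -0.140 to 0.265 for 10403825, -0.169 to 0.0716 for 10414775 and for 10414882, -0.0324 to 0.126 for 10414894 and -0.225 to 0.0718 for 10537567. Most members lay under the background line on each array, and the part of low signal in the absence of calls was not tested. Counting identical probe sets once was chosen after the data were seen.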

Other observations

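Replicates of the same group and pair of numbers differed, for the median member, by 0.172 between tolerant arrays 3 and 4 and by 0.100 between rejecting arrays 3 and 4, against 0.145 and 0.159 for the median of all probe sets. Between arrays 1 and 2 the median member differed by 0.215 in tolerant and 0.138 in rejecting samples, against 0.203 and 0.199 for all probe sets. The largest gap of a member was 1.11 between tolerant arrays 1 and 2, 1.06 between tolerant arrays 3 and 4, 1.26 between rejecting arrays 1 and 2 and 0.495 between rejecting arrays 3 and 4. Among the members with a single symbol 3 of 20 exceeded the line of at least 1 array, and among those with several symbols 10 of 31. Outside the members, 1 probe set held the same 8 values as a member.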
